A study of Solanum lycopersicum with 2 samples.

Results

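The phytochrome-interacting factors (PIFs), the transcription factor HY5 and the ubiquitin ligase COP1 were followed as 8 gene models in tomato (Solanum lycopersicum) leaves, out of 24915 models listed in at least 1 of 2 libraries. The members were chosen by identifier: Solyc09g063010 (PIF1a), Solyc06g008030 (PIF1b), Solyc01g102300 (PIF3), Solyc07g043580 (PIF4), Solyc03g115540 (PIF7a), Solyc06g069600 (PIF7b), Solyc08g061130 (HY5) and Solyc12g005950 (COP1). All 8 were listed in both libraries. The names came with the member list, since the files hold identifiers only. Among the RefSeq gene symbols of the SLM_r2.1 assembly 2 of the 8 names were found, HY5 on chromosome 8 and COP1 on chromosome 12, the chromosomes that the files give for these identifiers. No RefSeq entry carried an identifier of this kind, so the names were not checked further.

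The plants were of the cultivar Moneymaker, 8 weeks old, and raised in a glasshouse with 16 h of day and 8 h of night at 24 and 20°C. The heat-stress library came from plants placed in a growth chamber with light of 120 μmol m-2 s-1, kept at 39°C for 1 h and then at 24°C for 1.5 h, and the control library from plants labelled only as controls. Whether controls shared the chamber, the hour of sampling and the number of plants are not stated in the labels, so heat, the change of light and the hour cannot be told apart in these values. Young leaves at several stages of development were taken whole, and more cells of a type cannot be told apart from more RNA per cell; leaf markers were not checked because the identifiers are not paired with names. Transcripts were counted by massive analysis of cDNA ends (MACE), which reads the last 500 bp of poly-A RNA. It is meant to give 1 read for each transcript, so levels of different genes were compared without dividing by length. Such comparisons also depend on whether each model reaches the true end of its transcript, which was not checked.

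PIFs are basic helix-loop-helix transcription factors, most of which gather in darkness and are degraded when light-activated phytochromes bind them. In Arabidopsis they promote elongation growth, and PIF4 and PIF7 carry much of the growth response to warmth. HY5 is a basic leucine zipper factor that promotes light development, binding many of the promoters that PIFs also bind. COP1 is a RING-type ubiquitin ligase that in darkness marks HY5 for degradation and stabilises PIFs. Much of this control acts on the proteins, and only transcript levels were measured here.

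PIF4 was the most abundant of the 8 models and differed most between the libraries among those with at least 5 RPM (reads per 1000000 mapped reads, averaged over both libraries). Its level was 1.30 times as high in heat-stressed as in control leaves. HY5 and COP1 were 1.16 and 1.18 times as high, PIF3 was 0.936 times as high, and the 4 remaining PIFs were detected at only 16 to 34 reads. Of the 8 members 0 differed by 2-fold or more. Among all 11271 models past the 5 RPM filter, 3.91% were higher after heat stress by that margin and 1.66% were lower. Without the filter the shares were 2.55% and 0.943% of 24915 models. A difference of 1.5-fold was found in 0 of the 4 members past the filter, against 12.2% of models higher and 6.36% lower. With so few members, a count of 0 is near what the background gives and is not a result about them. There was 1 library per condition, so no test between conditions was possible, and every interval below is a 95% exact interval that covers counting error only.

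The control library had 11534512 mapped reads and the heat-stress library 13857252, of which the 8 members held 1357 and 1984. A read thus stands for 0.0867 RPM in control leaves and for 0.0722 RPM in heat-stressed leaves. The median of all models past the filter was itself a little higher in the heat-stress library, at a log2 ratio of 0.10, or a ratio of 1.08 before the pseudocount. Log2 ratios were computed after adding 1 RPM to both levels, which shrinks the differences of low models. The quartiles of the models lay at -0.17 and 0.37, and 60.6% were above 0.

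**Figure D1:**
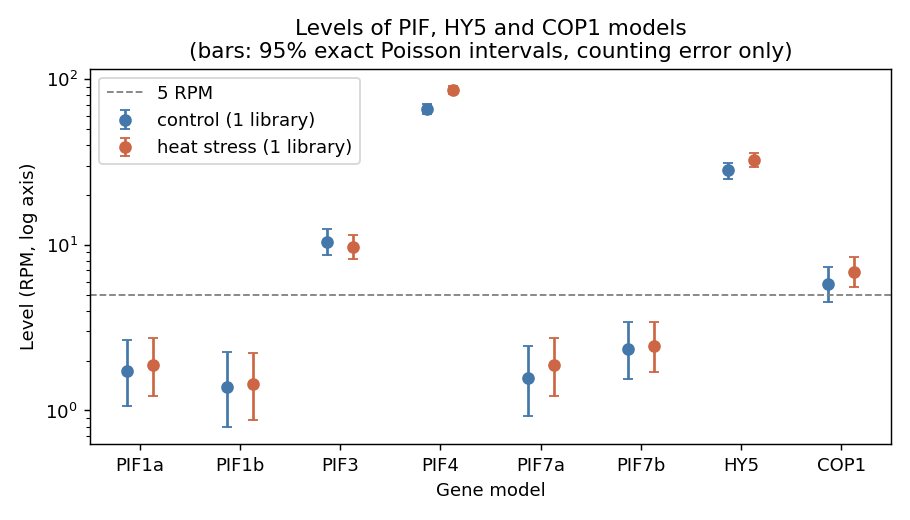
Level of each member in RPM on a log axis, in the control library and the heat-stress library, with 95% exact Poisson intervals and a dashed line at 5 RPM. PIF4 lies highest at 66.3 and 86.3 RPM, HY5 follows at 28.1 and 32.6 RPM, and PIF1a, PIF1b, PIF7a and PIF7b lie between 1.39 and 2.45 RPM.

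PIF4, on chromosome 7, had 765 reads in control leaves and 1196 in heat-stressed leaves. These correspond to 66.3 RPM (61.7 to 71.2) and 86.3 RPM (81.5 to 91.3), so the counting intervals of the 2 levels did not overlap. The ratio was 1.30 (1.19 to 1.43), a log2 ratio of 0.38, and 75.6% of the models past the filter had a lower log2 ratio. PIF4 therefore lay just above the upper quartile of all models. Such a counting interval, wholly above 1, was found for 36.0% of the models past the filter, and one wholly below 1 for 20.8%, so it was common at this depth. After division by the median ratio of all models, the PIF4 ratio was 1.21 (1.10 to 1.32). In both libraries PIF4 stood among the more abundant transcripts, at rank 1863 of 22893 listed models without stress and rank 1493 of 23748 with it.

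PIF3, which in Arabidopsis holds back greening of seedlings in the dark, had 120 control reads and 135 reads in the deeper heat-stress library. Its level was 10.4 RPM (8.63 to 12.4) in control leaves and 9.74 RPM (8.17 to 11.5) in heat-stressed leaves. PIF3 was the single member with a lower level in heat-stressed leaves, with a ratio of 0.936 (0.727 to 1.21) whose interval held 1. Its log2 ratio of -0.09 was above that of 31.3% of the models past the filter.

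PIF1a and PIF1b, 2 tomato models named after PIF1, a repressor of seed germination and of pigment synthesis in Arabidopsis, were both near the lower end of detection. PIF1a, on chromosome 9, was at 1.74 RPM (1.06 to 2.68) in control leaves and 1.89 RPM (1.23 to 2.75) in heat-stressed leaves. PIF1b, on chromosome 6, was at 1.39 RPM (0.793 to 2.25) and 1.44 RPM (0.882 to 2.23). The ratios were 1.09 (0.581 to 2.04) for PIF1a and 1.04 (0.512 to 2.15) for PIF1b. At this depth a difference of up to about 2-fold either way was not detectable for these models. PIF1a outnumbered PIF1b 1.25 to 1 (0.615 to 2.58) in control leaves and 1.30 to 1 (0.698 to 2.46) in heat-stressed leaves, so neither library separated their levels.

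PIF7a and PIF7b, 2 models named after PIF7, which drives elongation in shade in Arabidopsis, were as low as the PIF1 pair. PIF7a, on chromosome 3, had 18 reads in control leaves and 26 in heat-stressed leaves, or 1.56 RPM (0.925 to 2.47) and 1.88 RPM (1.23 to 2.75). PIF7b, on chromosome 6, had 27 and 34 reads, or 2.34 RPM (1.54 to 3.41) and 2.45 RPM (1.70 to 3.43). The ratios were 1.20 (0.634 to 2.33) and 1.05 (0.614 to 1.81), and both intervals held 1. The PIF7a to PIF7b ratio was 0.667 (0.346 to 1.26) in control leaves and 0.765 (0.441 to 1.31) in heat-stressed leaves. By the highest peak of each model, the heat-stress ratio was 1.43 (0.686 to 3.06), with PIF7a the higher. As for the PIF1 pair, counting error spanned equal levels of both models.

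HY5, on chromosome 8, was the second most abundant member. It had 324 reads in control leaves and 452 in heat-stressed leaves, or 28.1 RPM (25.1 to 31.3) and 32.6 RPM (29.7 to 35.8), and these intervals overlapped. The ratio was 1.16 (1.00 to 1.34), with a lower bound just above 1. Divided by the median ratio of all models, it was 1.08 (0.931 to 1.24), and that interval held 1. Scaled by reads in gene models, the HY5 ratio was 1.18 (1.02 to 1.37), an interval above 1. The log2 ratio of 0.21 was above that of 60.4% of the models past the filter.

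COP1, on chromosome 12, lay close to the filter. It had 67 reads in control leaves and 95 in heat-stressed leaves, or 5.81 RPM (4.50 to 7.38) and 6.86 RPM (5.55 to 8.38). The ratio was 1.18 (0.854 to 1.64), the log2 ratio was also 0.21, and 60.2% of the models past the filter had a lower one. HY5 transcripts outnumbered COP1 transcripts 4.84 to 1 (3.71 to 6.39) in control leaves and 4.76 to 1 (3.81 to 6.0) in heat-stressed leaves. Counted by the highest peak of each model in place of all reads, the proportions were 2.30 (1.57 to 3.42) and 2.41 (1.73 to 3.41). HY5 was thus the higher by both counts, but by unlike factors. Peak reads are a part of the same reads, so the peaks are not a separate check. The proportion by reads does not depend on how the libraries are scaled, and it changed by a factor of 0.984 (0.686 to 1.41) from the control to the heat-stress library.

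**Figure D2:**
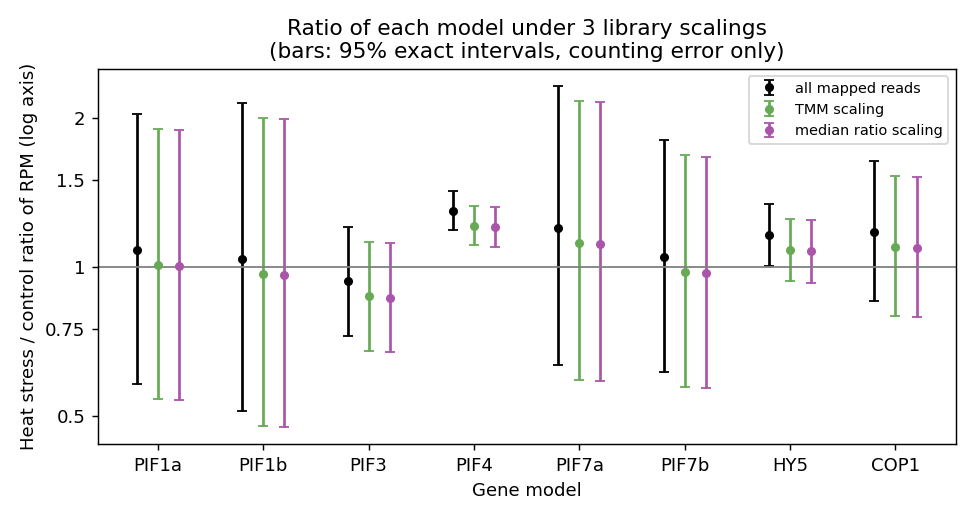
Ratio of heat-stress to control RPM of each member on a log axis, with 95% exact counting intervals, scaled by all mapped reads, by the trimmed mean of ratios (TMM) and by the median ratio. The PIF4 interval lies above 1 under all 3 scalings. Among these 3, the HY5 interval does so only with all mapped reads (1.00 to 1.34). The intervals of the other 6 members hold 1 throughout.

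**Figure D3:**
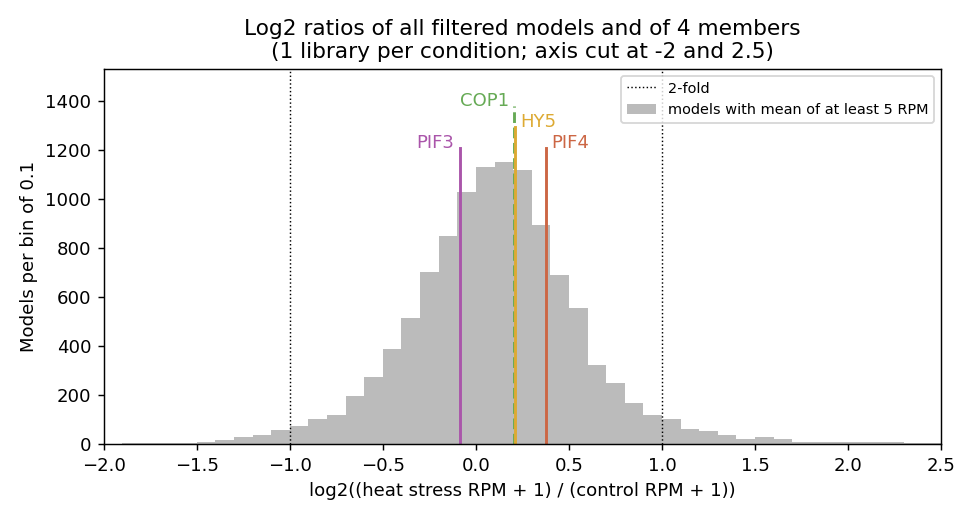
Number of models past the 5 RPM filter in bins of 0.1 of the log2 ratio, with lines for the 4 members past it and dotted lines at 2-fold. PIF3 lies at -0.09, COP1 and HY5 at 0.21 and PIF4 at 0.38, all well inside the 2-fold lines.

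The members past the filter were PIF4, HY5, PIF3 and COP1, with a median log2 ratio of 0.21, against 0.10 for all models past it. Over all 8 members the median was 0.12. Of the 8 members 7 were higher in the heat-stress library and 1 was lower, where 58.2% of the 21726 models listed in both libraries had a log2 ratio above 0. The intervals of 6 of the 8 ratios held 1. Those of PIF4 and HY5, 2 of the 4 members past the filter, lay above 1, as did 36.0% of all models past it. With the heat-stress values divided by 1.07 or 1.08, as the TMM and median ratio scalings do, PIF1b and PIF7b were below their control levels, so the count of 7 rests on the scaling. PIF4, HY5, COP1, PIF7a and PIF1a kept a ratio above 1 and PIF3 a ratio below 1 under the 4 scalings.

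The order of levels was the same in both libraries and began with PIF4, HY5, PIF3 and COP1. The counting intervals of these neighbours did not overlap in the control library. In the heat-stress library those of PIF3 (8.17 to 11.5 RPM) and COP1 (5.55 to 8.38 RPM) did. Below COP1 came PIF7b, then PIF1a, PIF7a and PIF1b, whose intervals overlapped with each other in both libraries and lay under that of COP1. In percentiles of the listed models, PIF4 was at 91.8 in the control library, HY5 at 81.3, PIF3 at 63.4 and COP1 at 53.7, and the 4 low PIFs were between 34.8 and 41.4.

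Taken as a family, the 6 PIF models summed to 83.8 RPM (78.6 to 89.2) in control leaves and 103.7 RPM (98.4 to 109.2) in heat-stressed leaves, and their ratio was 1.24 (1.14 to 1.34). PIF4 accounted for this difference: it was 19.99 RPM higher, against 19.96 RPM for the whole sum. By all mapped reads, the 5 other PIFs together were at 17.4 RPM in both libraries, with a ratio of 0.998 (0.824 to 1.21). Both ratios move with the scaling. Divided by the median ratio of all models, they were 1.15 for the 6 PIFs and 0.925 for the 5 others. Scaled by reads in gene models, they were 1.26 and 1.02. The split between PIF4 and the rest was chosen after the values were seen. Tomato genes named PIF8a and PIF8b are not in the member list, so sums and shares of PIFs leave them out.

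PIF4 supplied 79.2% of the reads of the 6 PIF models in control leaves (76.5 to 81.7, 765 of 966) and 83.2% in heat-stressed leaves (81.2 to 85.1, 1196 of 1437). PIF3 supplied 12.4% (10.4 to 14.7) and 9.39% (7.94 to 11.02). Each of the other 4 PIFs made up between 1.39% and 2.80% in either library. There were 3.81 reads of PIF4 for each read of the other 5 PIFs in the control library (3.25 to 4.47) and 4.96 in the heat-stress library (4.32 to 5.72). The proportion was thus 1.30 times as high with heat stress, with an interval from 1.05 to 1.61. With the highest peak of each model in place of all its reads, the proportions were 2.94 and 3.17 and this factor was 1.08 (0.735 to 1.57), an interval that held 1 and rests on fewer reads.

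**Figure D4:**
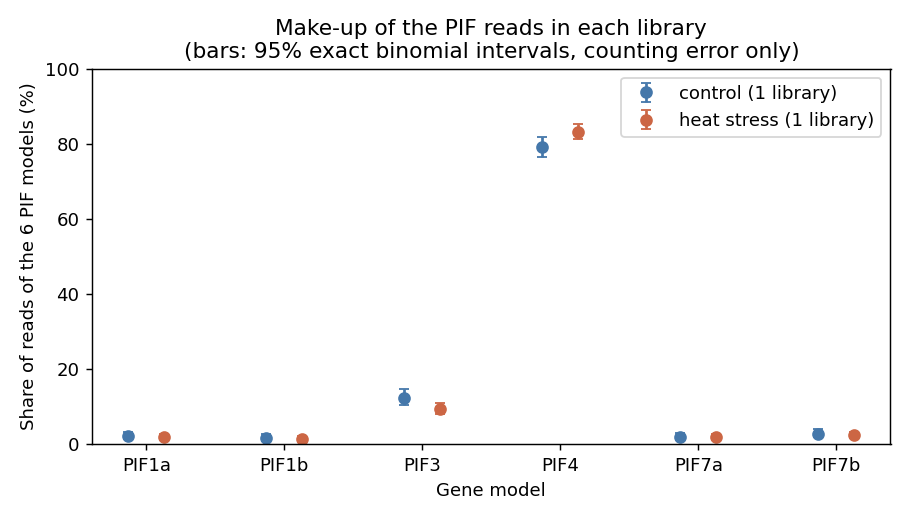
Share of each PIF among the reads of the 6 PIF models in the control and heat-stress libraries, in percent, with 95% exact binomial intervals. PIF4 makes up 79.2% and 83.2%, PIF3 12.4% and 9.39%, and the other 4 lie near the base line.

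In Arabidopsis PIFs and HY5 act against each other at shared promoters, and their proportion is given here. The summed transcripts of the 6 PIF models outnumbered HY5 transcripts 2.98 to 1 (2.63 to 3.39) in control leaves and 3.18 to 1 (2.86 to 3.54) in heat-stressed leaves. The proportion changed by a factor of 1.07 (0.901 to 1.26), an interval that held 1. For PIF4 alone the proportion to HY5 went from 2.36 (2.07 to 2.70) to 2.65 (2.37 to 2.95), a factor of 1.12 (0.943 to 1.33). Counting error alone therefore covered an unchanged proportion in both cases, and also covered an increase of up to 1.26 or 1.33 times. The pair of PIF4 and HY5 was chosen after the values were seen.

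A further column of the files holds the reads in the tallest peak of each model, which describes how far the 3' ends are concentrated at 1 place. In PIF4 the highest peak held 26.1% of the reads in the control library (23.1 to 29.4) and 23.6% in the heat-stress library (21.2 to 26.1). HY5 had 28.4% (23.5 to 33.6) and 27.2% (23.2 to 31.6), and PIF3 had 25.8% (18.3 to 34.6) and 29.6% (22.1 to 38.1). These were close to the medians of 26.2% and 25.3% over 11250 models past the filter. COP1 reads were more concentrated, with 59.7% (47.004 to 71.5) and 53.7% (43.2 to 64.0) of them in 1 peak. COP1 had only 67 and 95 reads. PIF1a, PIF1b and PIF7b, with fewer reads still, had 44.9%, 43.8% and 44.4% in the control library. In the heat-stress library they had 34.4%, 30.0% and 41.2%. The part of read number in these shares was not tested. PIF7a showed the widest difference, with 9 of 18 reads in the highest peak in the control library (50.0%, 26.02 to 74.0) and 20 of 26 in the heat-stress library (76.9%, 56.4 to 91.03). With so few reads its intervals overlapped, as did those of every other member.

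**Figure D5:**
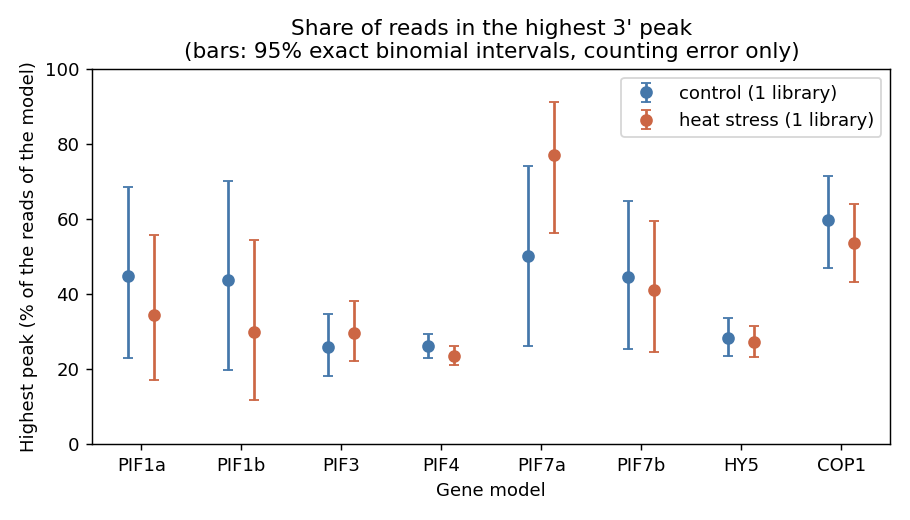
Share of the reads of each member that lay in its highest peak, in percent, in the control and heat-stress libraries, with 95% exact binomial intervals. COP1 lies at 59.7% and 53.7%, PIF7a at 50.0% and 76.9% with wide intervals, and PIF4, PIF3 and HY5 between 23.6% and 29.6%.

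PIF7a, PIF7b and COP1 carry version 1 identifiers and the other 5 members version 2. Over all listed models 19.4% of 10125 version 1 models and 62.9% of 14790 version 2 models passed the 5 RPM filter. Counts of 3' reads depend on whether a model reaches the true end of its transcript, and the part of the version in the low levels of PIF7a, PIF7b and COP1 was not tested.

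Reads were whole numbers in both libraries for 7 of the 8 members. PIF1a, at 20.05 and 26.14 reads, was the exception. The deposited counts are estimates, and how parts of a read arise is not stated. The nearest listed models before and after each member in identifier order were also read, passing over identifiers listed in neither library. Of these 16 models, 10 were coded on the same strand and 0 had the same highest peak. Some lay under the 5 RPM filter, and 0 of those past it differed by 2-fold or more. Among all models past the filter, 3.91% were higher by that margin and 1.66% lower, so with few neighbours a 0 is near the background. The models most like PIF4 over the 2 libraries, by Euclidean distance on log2(RPM + 1), were Solyc01g099790.2 on chromosome 1, at 67.02 and 87.5 RPM (distance 0.025), and Solyc05g005920.2 on chromosome 5, at 66.1 and 84.7 RPM (distance 0.027). The files give neither of them a name, and likeness over 2 libraries is a description only.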

How the data were processed

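RNA of control and heat-stressed leaves was measured in 1 MACE library each. FastQC is the single tool in the submitters' processing notes; for the aligner, build, annotation and strand setting nothing is stated (not given in the sources used here). Per the file headers, the authors deposited an estimated count of reads per model, not normalized, and, for each library, a total count of mapped reads. The deposited column headed TPM equals reads per 1000000 mapped reads with no length term, and is treated as RPM. The authors deposited the highest peak as a signal in reads, with no definition of a peak.

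The members, pairs and lists were chosen with earlier results of these data known. The named genes were the 8 members and the 2 models nearest to the member with the largest absolute log2 ratio; a neighbour in identifier order was to be named if its peak equalled the member's, and none did. A list of other light-signalling genes, PIF8a and PIF8b among them, was not used, because neither the files nor the reference table (41476 genes) pair identifiers with names. No sequence is shown because no sequence file was used here.

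Models absent from a library were set to 0. The comparison used a pseudocount of 1 RPM, a mean of at least 5 RPM and a 2-fold threshold. Intervals (95%) were exact: Poisson for levels, Clopper-Pearson for shares and ratios of reads, and conditional for ratios of proportions. Reads were first rounded to whole numbers; reads within 0.000001 of a whole number were called whole. Intervals cover the counting error of reads only. Reads made by PCR need not be independent molecules, and copies of a molecule would make these intervals too narrow. Alternatives were pseudocounts of 0.1 and 5 RPM, no filter or 20 RPM, a 1.5-fold threshold, and scaling by the median ratio, by TMM (edgeR 4.0.16, used for this factor only) or by reads in gene models. Calculations used Python 3.11.15 and scipy 1.17.1 and were tested on simulated libraries.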

Additional observations from a re-analysis of the deposited data

How the results depend on the processing

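The count of members at least 2-fold higher or lower was 0 under every setting listed in the processing section, the 1.5-fold threshold included, where 12.2% of all models past the filter were higher and 6.36% lower. The log2 ratios of the 8 members stayed within their counting intervals under both pseudocounts and the 3 other scalings. PIF1b changed sign to -0.03 with the median ratio and with TMM, and PIF7b to -0.03 and -0.02, values within counting error of 0. The log2 ratio of PIF4 ranged from 0.27 with the median ratio to 0.40 with the gene-model scaling. A filter of 20 RPM left only PIF4 and HY5 to compare. Alternatives with PIF4 left out, and with peaks for the proportions between members, were chosen after seeing the data. So were the pairs of PIF4 with the other PIFs and with HY5. Without PIF4 the log2 ratio of the summed PIFs was -0.0022 in place of 0.31. With the highest peak in place of all reads, the share of PIF4 was 74.6% in control leaves and 76.01% in heat-stressed leaves, that of PIF7a 3.36% and 5.39%, that of PIF7b 4.48% and 3.77%, and that of PIF1a 3.36% in the control library. Peaks also gave other proportions within a library than reads did. HY5 to COP1 was 2.30 and 2.41 in place of 4.84 and 4.76. PIF4 to the other PIFs was 2.94 and 3.17 in place of 3.81 and 4.96. With heat stress, PIF7a to PIF7b was 1.43 in place of 0.765, and PIF4 to HY5 was 2.29 in place of 2.65. A proportion by peaks is that by reads multiplied by the ratio of the peak shares, so these differences restate unlike peak shares. The cause of the unlike peak shares was not tested. The factors by which the 6 proportions changed between the libraries stayed within their counting intervals. No paired analysis was possible because each condition had 1 library. Depth limits PIF1a, PIF1b, PIF7a and PIF7b most, and the spread between plants is unknown for every member.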
